A study of Homo sapiens with 6 samples.

Results

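Transcripts of 9 genes that restrain the RAS-RAF-MEK-ERK pathway, the Sprouty genes SPRY1, SPRY2 and SPRY4, the SPRED genes SPRED1 and SPRED2, the dual-specificity phosphatase genes DUSP4, DUSP5 and DUSP6, and PAQR3, were followed in prostate cancer cells. Every probe set that the platform annotation pairs with 1 of these genes alone was taken, which gave 19 of the 54613 probe sets tested, for 9 of 19775 genes. The genes were picked on intensity differences between these same groups, already known when the set was proposed. The values below therefore describe the members, no p-value is given for them, and counts of members past a threshold support nothing about the set. LNCaP, an androgen-responsive line from a metastasis of human prostate cancer, had received small interfering RNA (siRNA) to the non-coding RNA PCARNEQ (siPCARNEQ, 3 arrays) or to EGFP (siEGFP, 3 arrays), a fluorescent protein that human cells lack. Both groups share the line and the use of an siRNA, and the labels name neither separate cultures nor the number of siRNA sequences. The spread between arrays may therefore be technical.

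ERK is switched on when growth factor receptors activate RAS, which activates the RAF kinases, then MEK and ERK. Sprouty and SPRED proteins damp this signal between the receptor and RAF, PAQR3 holds RAF at the Golgi, and DUSP4, DUSP5 and DUSP6 remove phosphate from MAP kinases. Several of these genes, the Sprouty and DUSP genes among them, are switched on by ERK itself and so close a negative feedback loop. Lower SPRY1 and SPRY2 has been described in prostate tumours.

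Values are log2 of the deposited probe-set intensity, so a difference of 1 is a doubling, and all differences are siPCARNEQ minus siEGFP. The median level was 7.03 on each array, and a probe set under it was not shown to be above background. A probe set was called where limma gave a Benjamini-Hochberg adjusted p below 0.05 over all probe sets. Array 1 stood apart from arrays 2 and 3 in both groups, and the 3' minus 5' difference of the ACTB control probe sets, which grows when RNA is degraded, reached 1.84 in siPCARNEQ array 1 against at most 0.78 elsewhere. The luminal prostate markers that define LNCaP were present, with 7 of 9 measured and none below the median, among them KLK3 at 14.10 in siPCARNEQ and 13.58 in siEGFP. Their summed level was 15.85 to 15.90 in siPCARNEQ and 15.20 to 15.33 in siEGFP, with 5 of the 7 called higher. Of 13 measured markers of basal, neuroendocrine, fibroblast, immune and endothelial cells, 6 lay below the median in both groups, and KRT14 (1.02) and LUM (1.39) were called higher. KRT14 was under the median in both groups, at 6.30 in siPCARNEQ and 5.28 in siEGFP. LUM was at 7.17 in siPCARNEQ and, under the median, at 5.78 in siEGFP. The part of these shifts in the results below was not tested. The level of PCARNEQ itself was not analysed here.

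Of the 9 genes, 4 had a called probe set, SPRY1, SPRED1, PAQR3 and DUSP4, and all 6 called probe sets were lower in siPCARNEQ. Of all probe sets tested, 18.5% were called, 8.61% lower and 9.92% higher. With each gene read by its brightest probe set, 4 of the 9 were called, all lower. Of all 19775 genes read in that way, 23.8% were called, 10.6% lower and 13.1% higher. The share of all genes with any called probe set was not counted. None of the 19 was called higher with limma. With the replicate number of the labels as a block, 1 was called higher, and leaving out siPCARNEQ array 1 gave 2. The groups did not overlap in 8 probe sets that were lower and 2 that were higher, where 19.1% and 18.6% of all probe sets did the same. The 2 that were higher belonged to DUSP6 and lay under the array median in both groups. The median difference over the 19 was -0.35, against -0.01 over all probe sets. In bulk RNA, fewer cells of a type and less RNA per cell cannot be told apart.

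**Figure D1:**
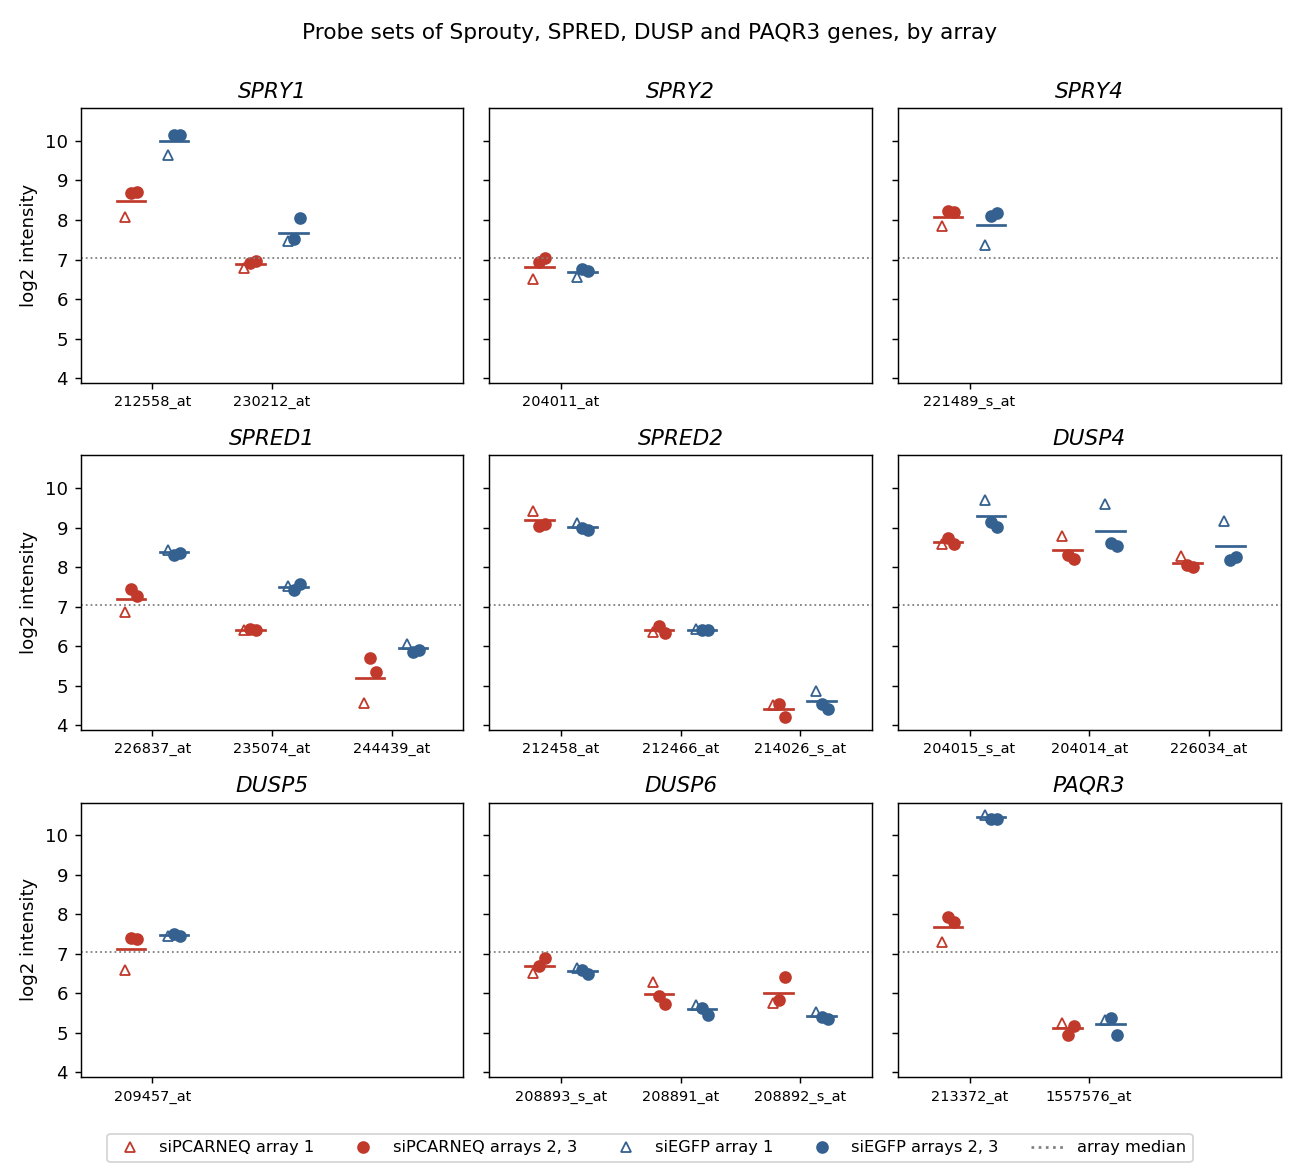
Log2 intensity of each member probe set on each array, 1 panel per gene and 1 pair of columns per probe set, with siPCARNEQ in red on the left and siEGFP in blue on the right. Triangles are array 1, filled circles arrays 2 and 3, bars the group means and the dotted line the array median of 7.03. The groups are far apart for PAQR3 213372_at, SPRY1 212558_at and SPRED1 235074_at and overlap for SPRY4 and SPRED2.

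Among the Sprouty genes, SPRY1 was lower and SPRY2 and SPRY4 were not called. SPRY1 encodes a membrane-associated inhibitor that acts on receptor signals before RAF. Its brighter probe set, 212558_at, read 8.09, 8.68 and 8.71 on siPCARNEQ arrays 1 to 3, against 9.66, 10.15 and 10.16 on siEGFP arrays 1 to 3. Every siPCARNEQ array lay below every siEGFP array, and in both groups array 1 was the lowest. The mean was 8.49 ± 0.35 in siPCARNEQ and 9.99 ± 0.29 in siEGFP (SD, n = 3 each), a difference of -1.50 (SE 0.21), or 2.82-fold lower. The dimmer probe set, 230212_at, read 6.78, 6.90 and 6.96 in siPCARNEQ, against 7.47, 7.52 and 8.04 in siEGFP. Here siEGFP array 3 was the high one, the siPCARNEQ mean fell under the array median, and the difference was smaller, at -0.80 (SE 0.16). Both probe sets were called, and neither was when arrays 2 and 3 of each group were averaged to leave 2 values a group (-1.51 and -0.77).

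SPRY2, the relative best known for blocking growth factor signals in epithelia, was measured by 1 probe set, 204011_at. It read 6.50, 6.93 and 7.03 in siPCARNEQ, against 6.54, 6.77 and 6.70 in siEGFP. The groups overlapped at a level under the median, and the difference was 0.15 (SE 0.15). It was called higher when siPCARNEQ array 1 was left out, at 0.31. SPRY4, a further feedback inhibitor of the family, read 7.85, 8.22 and 8.19 in siPCARNEQ, against 7.36, 8.11 and 8.18 in siEGFP (221489_s_at). Arrays 2 and 3 nearly coincided across groups while siEGFP array 1 was low, so the difference of 0.20 (SE 0.23) came to -0.06 without that array.

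The SPRED genes were split in the same manner, SPRED1 lower and SPRED2 not called. SPRED1 carries the RAS-inactivating protein neurofibromin to the membrane, and its loss causes Legius syndrome. Probe set 226837_at read 6.87, 7.44 and 7.27 in siPCARNEQ, against 8.45, 8.31 and 8.36 in siEGFP. Probe set 235074_at read 6.40, 6.44 and 6.40 in siPCARNEQ, against 7.51, 7.41 and 7.58 in siEGFP. No array of one group reached the other in either, and the siPCARNEQ arrays of 235074_at differed among themselves by at most 0.04. The differences were -1.18 (SE 0.14) for 226837_at, or 2.27-fold lower, and -1.08 (SE 0.07) for 235074_at, whose siPCARNEQ mean of 6.41 was under the array median and so not shown to be above background. The dimmest SPRED1 probe set, 244439_at, read 4.56, 5.69 and 5.33 in siPCARNEQ, against 6.06, 5.85 and 5.91 in siEGFP. It pointed the same way (-0.74, SE 0.26), lay under the median in both groups and was not called, with array 1 at -1.50 and arrays 2 and 3 at -0.36. Without siPCARNEQ array 1 or array 2 it was called, at -0.43 and -0.99.

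SPRED2, which shares the neurofibromin-binding and Sprouty-related domains of SPRED1, had 3 probe sets, and in all of them the groups overlapped. The brightest, 212458_at, read 9.41, 9.04 and 9.09 in siPCARNEQ, against 9.13, 8.99 and 8.94 in siEGFP. Its difference was 0.17 (SE 0.12), and only siPCARNEQ array 1 stood above the siEGFP arrays by more than the spread of the rest. The other probe sets, 212466_at and 214026_s_at, differed by -0.02 (SE 0.08) and -0.19 (SE 0.15) at levels under the median.

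Promoter windows of the Sprouty and SPRED genes are shown because the families were split, with SPRY1 and SPRED1 lower beside relatives that were not called. The 250 bases before a transcription start come from RefSeq on GRCh38.p14, in which 10 windows of 6 member genes (SPRY1, SPRY2, SPRY4, SPRED1, SPRED2 and DUSP6) matched by symbol. Capitals mark the GC box GGGCGG, bound by SP1 and its relatives, and the ETS core CCGGAA, the family of factors through which ERK acts on many promoters, each on either strand. Windows are written 5′ to 3′ in the direction of transcription, with both SPRY1 starts and the first SPRY2 and SPRED2 start.
SPRY1 chr4:123396545-123396794 plus strand: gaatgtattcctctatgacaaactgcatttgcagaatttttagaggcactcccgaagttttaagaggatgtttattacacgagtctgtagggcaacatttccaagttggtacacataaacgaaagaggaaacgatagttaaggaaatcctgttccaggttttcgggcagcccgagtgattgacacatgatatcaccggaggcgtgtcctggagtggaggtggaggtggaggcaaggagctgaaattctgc
SPRY1 chr4:123398136-123398385 plus strand: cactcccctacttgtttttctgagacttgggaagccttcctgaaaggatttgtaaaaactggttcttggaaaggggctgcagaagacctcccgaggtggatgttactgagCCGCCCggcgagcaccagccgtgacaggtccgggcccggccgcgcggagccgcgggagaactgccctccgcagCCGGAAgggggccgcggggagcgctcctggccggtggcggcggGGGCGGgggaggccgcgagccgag
SPRED1 chr15:38252586-38252835 plus strand: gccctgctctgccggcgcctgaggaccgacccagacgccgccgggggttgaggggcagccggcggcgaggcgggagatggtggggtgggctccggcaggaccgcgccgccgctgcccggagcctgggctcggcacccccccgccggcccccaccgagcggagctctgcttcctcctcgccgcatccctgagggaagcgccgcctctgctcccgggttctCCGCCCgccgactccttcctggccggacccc
SPRY2 chr13:80341127-80341376 minus strand: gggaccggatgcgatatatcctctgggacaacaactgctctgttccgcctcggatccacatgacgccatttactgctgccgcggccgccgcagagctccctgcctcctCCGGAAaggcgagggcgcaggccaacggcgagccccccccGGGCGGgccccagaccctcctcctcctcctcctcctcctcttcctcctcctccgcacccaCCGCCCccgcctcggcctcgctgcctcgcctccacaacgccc
SPRED2 chr2:65432600-65432849 minus strand: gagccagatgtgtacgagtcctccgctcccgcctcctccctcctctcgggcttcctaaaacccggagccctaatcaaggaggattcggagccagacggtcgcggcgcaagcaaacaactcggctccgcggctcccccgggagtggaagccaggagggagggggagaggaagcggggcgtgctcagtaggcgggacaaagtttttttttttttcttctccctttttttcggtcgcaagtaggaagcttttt
The downstream SPRY1 window held 2 GC boxes and 1 ETS core, and so did the SPRY2 window. SPRY1 was lower, while SPRY2 was read under the array median in both groups and was not called. Any part of the motifs in these differences was not tested. SPRED1 held 1 GC box and no ETS core, and so did the window of SPRY4, which is not printed and whose gene was not called. The printed SPRED2 window held neither, nor did the upstream SPRY1 window or the further SPRY2 and SPRED2 windows. Over 35116 promoter windows of this length, 42.6% held the GC box and 14.5% the ETS core, against 4 and 2 of the 10 member windows. The E-box CACGTG, to which MYC binds, was in none of the 10 and in 6.34% of all windows. The AP-1 motif TGANTCA was likewise in none of the 10 and in 6.57% of all. GC content was 45.6% and 68.0% in the SPRY1 windows, 78.4% in SPRED1, 70.4% in SPRY2 and 58.8% in SPRED2.

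PAQR3, a Golgi membrane protein of the progestin and adiponectin receptor family that anchors RAF, had the largest difference of the set. Its brighter probe set, 213372_at, read 7.30, 7.93 and 7.80 in siPCARNEQ, against 10.51, 10.42 and 10.41 in siEGFP. The siEGFP arrays lay within 0.10 of each other, and the highest siPCARNEQ array was still 2.48 below the lowest of them. The mean was 7.68 ± 0.34 in siPCARNEQ and 10.45 ± 0.05 in siEGFP (SD, n = 3 each), 6.81-fold lower. The gap was wider on arrays 1 (-3.21) than on arrays 2 and 3 (-2.55). The second PAQR3 probe set, 1557576_at, read 5.25, 4.95 and 5.18 in siPCARNEQ, against 5.32, 5.36 and 4.95 in siEGFP. There the groups overlapped far under the median, with a difference of -0.09 (SE 0.14), so the probe sets of the gene disagree, and the dim one was not shown to be above background.

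The genes with array profiles nearest to PAQR3 213372_at were TMTC3, DTD2, REEP3, NDC1 and C6orf120, by Euclidean distance over the 6 arrays after each profile was centred on its mean. TMTC3, the nearest at a distance of 0.10, is a mannosyltransferase of the endoplasmic reticulum, and REEP3 is an endoplasmic reticulum shaping protein. The other distances were 0.18 for DTD2, 0.25 for REEP3, 0.29 for NDC1, which encodes a nuclear pore protein, and 0.30 for C6orf120. Their differences ran from -2.60 to -2.81. The profiles share the 2 groups, so a short distance needs a like difference between them.

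Among the phosphatase genes, 1 probe set of DUSP4 was called lower and none of DUSP5 or DUSP6 was called. DUSP4 encodes a nuclear phosphatase of ERK and JNK. Its probe set 204015_s_at read 8.58, 8.73 and 8.57 in siPCARNEQ, against 9.70, 9.14 and 9.02 in siEGFP. The groups did not overlap, but siEGFP array 1 stood well above the other siEGFP arrays, and the difference was -0.66 (SE 0.18), -1.12 on arrays 1 and -0.43 on arrays 2 and 3. This call was lost without siPCARNEQ array 1, 2 or 3 (-0.64, -0.71 and -0.63) and without siEGFP array 2 (-0.73), and with an offset of 50 or arrays 2 and 3 averaged (-0.60 and -0.78). The other DUSP4 probe sets, 204014_at and 226034_at, showed the same high siEGFP array 1, at 9.61 and 9.17, against 8.18 to 8.61 on siEGFP arrays 2 and 3. Their differences were -0.49 (SE 0.30) and -0.43 (SE 0.26), the groups overlapped, and 204014_at was called lower with the replicate number as a block. Without siEGFP array 1 they came to -0.14 and -0.11.

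DUSP5, a nuclear phosphatase specific for ERK, was measured by 209457_at, which read 6.60, 7.39 and 7.37 in siPCARNEQ, against 7.45, 7.51 and 7.44 in siEGFP. The groups did not overlap, yet only siPCARNEQ array 1 was clearly apart, with -0.85 on arrays 1 and -0.10 on arrays 2 and 3. That array is the one with the high ACTB 3' to 5' difference of 1.84, and its part in this value was not tested.

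DUSP6, a cytoplasmic phosphatase specific for ERK and a common readout of ERK activity, ran the other way at low levels. Probe set 208892_s_at read 5.76, 5.82 and 6.41 in siPCARNEQ, against 5.53, 5.39 and 5.34 in siEGFP. Probe set 208891_at read 6.28, 5.94 and 5.72 in siPCARNEQ, against 5.69, 5.63 and 5.44 in siEGFP. In both, all siPCARNEQ arrays were above all siEGFP arrays, by a narrow gap of 0.23 in the first and 0.02 in the second. The differences were 0.58 (SE 0.17) and 0.39 (SE 0.15) and were not called, though 208891_at was with the replicate number as a block and 208892_s_at without siPCARNEQ array 1 (0.69). Probe set 208892_s_at came to 0.37 without siPCARNEQ array 3 and 0.30 with an offset of 50, and 208891_at to 0.24 without siPCARNEQ array 1 and 0.21 with that offset. In the brightest DUSP6 probe set, 208893_s_at, the groups overlapped at 6.70 ± 0.18 in siPCARNEQ and 6.57 ± 0.08 in siEGFP (SD, n = 3 each). All 3 lay under the array median. The 5 genes nearest to the profile of 208892_s_at were AOX1, DPY19L1, CARTPT, LOC101928230 and DNAI7, at distances of 0.32 to 0.34, wider than for PAQR3.

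**Figure D2:**
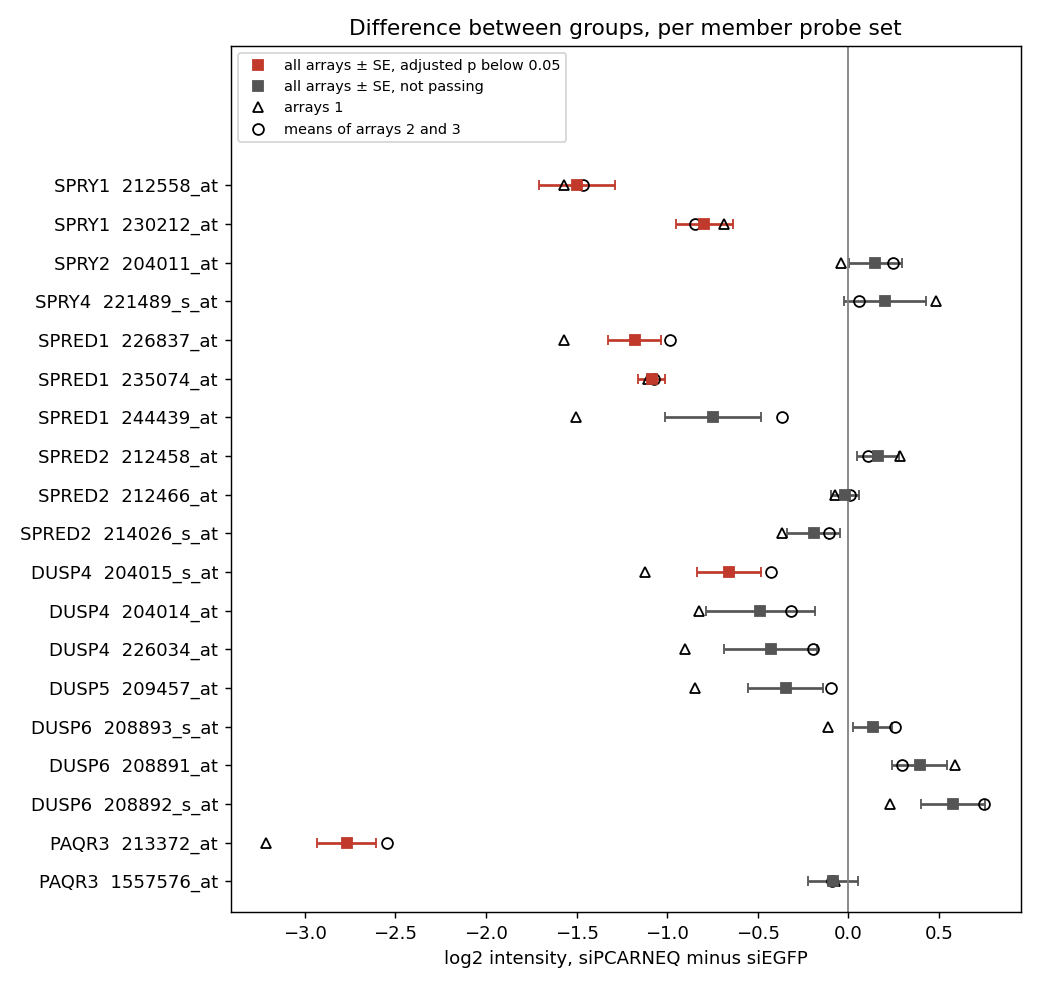
Difference in log2 intensity, siPCARNEQ minus siEGFP, for the 19 member probe sets. Squares are the estimate over all arrays with its SE (red where called), open triangles the difference between the single arrays 1 and open circles that between the means of arrays 2 and 3. The PAQR3 213372_at, SPRY1 and SPRED1 estimates lie at or below -0.74, while those of SPRED2, SPRY2 and SPRY4 lie between -0.19 and 0.20.

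How far the members depended on array 1 differed between genes. In SPRED1 235074_at the differences were -1.11 on arrays 1 and -1.07 on arrays 2 and 3, and in SPRY1 212558_at -1.57 and -1.46. The arrays 1 difference was the larger in the called SPRED1 226837_at (-1.57 against -0.98) and PAQR3 213372_at (-3.21 against -2.55). It was also the larger in SPRED1 244439_at, DUSP4 and DUSP5. SPRY2 204011_at and DUSP6 208893_s_at had differences of opposite sign, -0.04 and -0.11 on arrays 1 against 0.24 and 0.25 on arrays 2 and 3. Neither was called.

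Other genes of the pathway were read from lists of relatives, partners, cascade members and ERK-responsive transcripts, each gene by its brightest probe set. Over all 19775 genes read in this way, 23.8% were called, 13.1% higher and 10.6% lower, with a median difference of -0.01. A value given for a list gene is that of this 1 probe set. Of the 22 called genes named by rule from the lists, 15 had more than 1 probe set, and in each of the 15 at least 1 further probe set was not called, while none had calls in both directions. The 7 further MAP kinase phosphatases included 3 that were higher and 4 that did not pass, with a median of 0.35. DUSP16 and DUSP10, which act mainly on JNK and p38, rose by 1.45 (SE 0.08, limma adjusted p = 0.000143) and 0.77 (SE 0.13, adjusted p = 0.0072). DUSP1, an inducible nuclear phosphatase, rose by 0.35 (SE 0.08, adjusted p = 0.0268), while its other 2 probe sets differed by -0.03 and 0.00. DUSP16 read 11.24, 11.09 and 11.13 in siPCARNEQ, against 9.64, 9.75 and 9.74 in siEGFP, opposite in direction to DUSP4. None of the list was lower with limma, even where p under 0.05 is left unadjusted, and 4 were then higher. The share of all genes past the unadjusted p was not counted. With the replicate number as a block, 5 were called, among them DUSP2 with a difference of -0.32. DUSP1 did not pass without siPCARNEQ array 2 or without any 1 of the siEGFP arrays.

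The 10 measured genes among other brakes of the pathway included 4 that rose and none that fell, with a median of 0.17. Where the limma p under 0.05 is left unadjusted, 4 were higher and 1 lower. LRIG1, which promotes breakdown of the EGF receptor, rose by 1.28 (SE 0.13, adjusted p = 0.00106). NF1, which encodes neurofibromin, the partner of SPRED1, rose by 0.42 (SE 0.07, adjusted p = 0.00844) at a level under the median, 5.93 in siPCARNEQ and 5.51 in siEGFP, and by 0.21 with the offset of 50. The RAS GTPase-activating protein RASAL2 rose by 0.88 (SE 0.22, adjusted p = 0.0338). IL17RD, an inhibitor of FGF signalling also called SEF, rose by 1.09 (SE 0.31, adjusted p = 0.0495). Only 1 of 4 LRIG1 probe sets, 3 of 8 of RASAL2 and 1 of 2 of IL17RD were called. SPRY3 and SPRED3, the remaining family members, had differences of 0.03 each and were not called. Only 2 of the 10 were called without siPCARNEQ array 3, without siEGFP array 2 or without siEGFP array 3.

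Transcripts of proteins that bind or modify Sprouty included 3 of 8 that rose and none that fell, with a median of 0.14. Where that p is left unadjusted, 4 were higher and 1 lower. The kinase DYRK1A, which phosphorylates SPRY2, rose by 0.54 (SE 0.12, adjusted p = 0.0217), the ubiquitin ligase SIAH2 by 0.45 (SE 0.11, adjusted p = 0.0289) and the kinase MKNK1 by 0.32 (SE 0.08, adjusted p = 0.0393). Only 1 of 5 DYRK1A probe sets was called, and the others differed by -0.09, 0.12, -0.07 and 0.19. These counts leaned on single arrays: 1 was called without siPCARNEQ array 2, siPCARNEQ array 3 or siEGFP array 1, 0 without siEGFP array 2 or array 3, and 5 without siPCARNEQ array 1.

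In the RAS-ERK cascade, 3 of 15 measured genes rose and 2 fell, with a median of 0.20. PTPN11, which encodes the phosphatase SHP2 that carries receptor signals to RAS, fell by 1.05 on the log2 scale (SE 0.07, adjusted p = 0.000219). It read 12.03, 12.08 and 12.05 in siPCARNEQ, against 13.08, 13.13 and 13.12 in siEGFP. The arrays of a group were nearly alike there, and 3 of its 6 probe sets were called, all lower. The RAS exchange factors SOS2 and SOS1 rose by 0.62 (SE 0.07, adjusted p = 0.00118) and 0.45 (SE 0.08, adjusted p = 0.00949), and the adaptor GRB2 by 0.30 (SE 0.07, adjusted p = 0.0251). Only 1 of 5 SOS1 probe sets, 1 of 6 of SOS2 and 1 of 3 of GRB2 was called, and the next brightest of SOS1 (212780_at) and GRB2 (215075_s_at) differed by -0.01 and -0.07. HRAS, named after its value was seen, fell by 0.49 (SE 0.13, adjusted p = 0.0365). Without siPCARNEQ array 2, siPCARNEQ array 3 or siEGFP array 3, 3 of the 15 were called, and 2 without siEGFP array 2.

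Of 16 ERK-responsive transcripts, 1 rose, 3 fell and 12 did not pass, with a median of -0.06. MAFF, a small MAF protein that binds DNA, rose by 1.69 (SE 0.10, adjusted p = 0.000173), at 7.98 in siPCARNEQ and 6.29 in siEGFP, which is under the median, and by 1.24 with the offset of 50. Its other probe set, 205193_at, differed by 0.18 (SE 0.09) and was not called. In siEGFP 205193_at was the brighter, at 7.025. The probe set read here, 36711_at, was thus the brightest over all arrays only through its siPCARNEQ level. MYC, which drives growth genes, fell by 1.56 (SE 0.24, adjusted p = 0.00498), with -2.33 on arrays 1 and -1.18 on arrays 2 and 3. IER5, an immediate early gene, fell by 0.39 (SE 0.07, adjusted p = 0.00951), and ETV1, an ETS factor that is rearranged in LNCaP, by 0.48 (SE 0.11, adjusted p = 0.0248). ETV4 and ETV5, ETS factors that often move with Sprouty and DUSP6 genes, had differences of -0.04 (SE 0.09) and -0.16 (SE 0.11). The immediate early genes FOS and EGR1 had differences of -0.70 (SE 0.38) and 0.36 (SE 0.24), and neither passed, although both did with the replicate number as a block (adjusted p = 0.0249 and 0.0477).

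The other members of the PAQR family moved both ways, with 2 of 10 higher, 2 lower and a median of -0.01. MMD and the adiponectin receptor gene ADIPOR1 fell by 1.67 (SE 0.08, adjusted p = 0.000111) and 1.28 (SE 0.10, adjusted p = 0.000465). MMD read 10.26, 10.29 and 10.26 in siPCARNEQ, against 12.06, 11.91 and 11.85 in siEGFP (203414_at). A second MMD probe set, 244523_at, averaged 8.78 in siPCARNEQ and 8.79 in siEGFP, a difference of -0.02 (SE 0.21). The probe sets of MMD thus disagree at levels above the array median, whereas the unchanged PAQR3 probe set lay under it. PAQR4 and PAQR6 rose by 0.71 (SE 0.15, adjusted p = 0.0157) and 0.42 (SE 0.10, adjusted p = 0.0267), PAQR4 by 1.19 on arrays 1 and 0.48 on arrays 2 and 3. ADIPOR2, the second adiponectin receptor, had a difference of 0.02 (SE 0.07). Without siEGFP array 1 or array 2, 2 of the 10 were called.

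**Figure D3:**
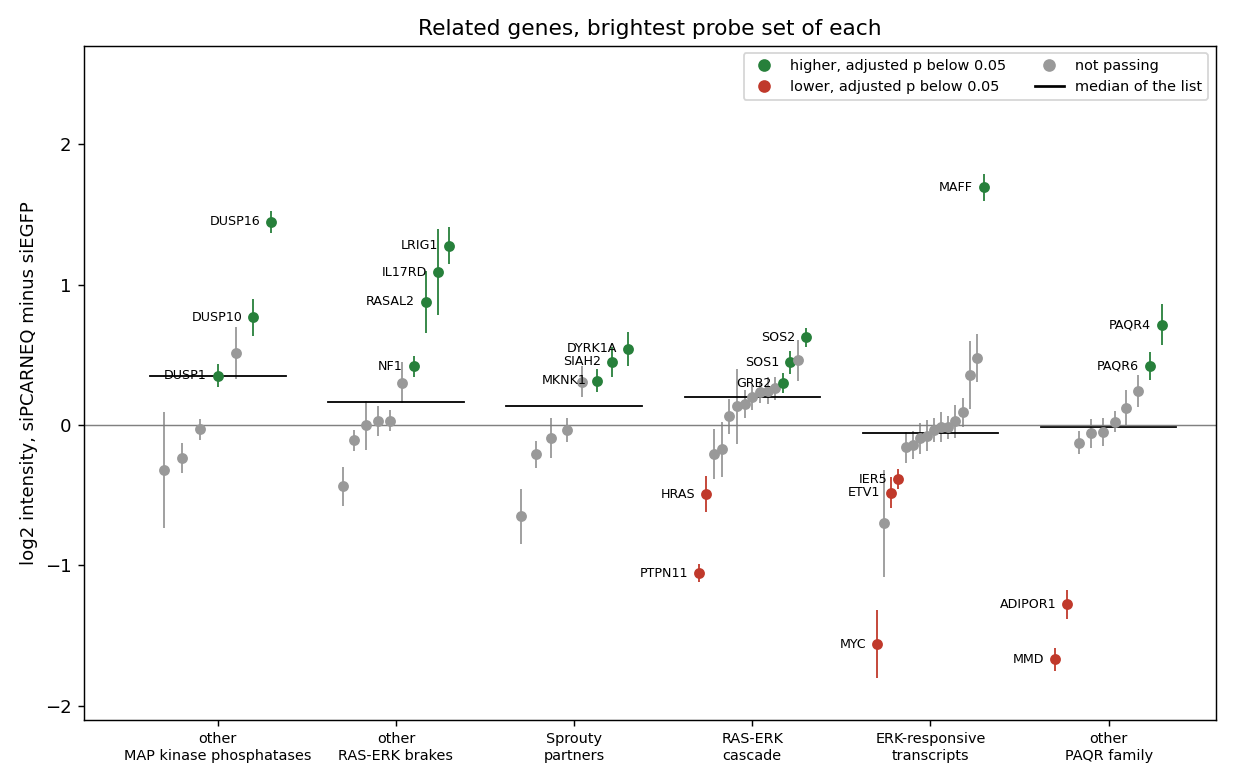
Difference in log2 intensity, siPCARNEQ minus siEGFP, for the brightest probe set of each gene in 6 lists of related genes, with its SE. Green points were called higher, red points lower and grey points did not pass, and black lines are list medians. DUSP16, LRIG1 and MAFF stand highest and MMD, MYC, ADIPOR1 and PTPN11 lowest. The MAFF probe set shown is the brighter one in siPCARNEQ only.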

How the data were processed

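Total RNA of 6 LNCaP samples was labelled with biotin and hybridised to single-colour Affymetrix arrays. The deposited values are linear probe-set intensity summarised with RMA, per the submitters' processing notes. The RMA version and the build behind the probes were not found in these sources. Sorted log2 values were equal across arrays to within 0.0049, so a shift in overall signal is out of reach. All values were above 0, and log2 was taken without a pseudocount. The table held 54675 probe sets, and 62 controls were left out. Symbols came from the platform annotation, where 41091 probe sets had 1 gene, 1801 several and 11721 none listed. List genes without such a probe set were not analysed here.

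The contrast was fitted in limma 3.58.1 (lmFit, eBayes, R 4.3.3) on all 6 arrays, 2-sided, without covariates. The fit was tested on simulated data. Python 3.11.15 and matplotlib 3.10.9 served for tables and figures. The members, lists and alternatives were chosen with earlier results of these data known. All member probe sets are given. From each list up to 4 called genes with the smallest p are named, besides genes marked otherwise and uncalled relatives and immediate early genes, chosen after their values were seen. Deviations from the group means correlated at 0.47, 0.30 and 0.34 between arrays 1, 2 and 3 of the groups. Arrays of unlike number were not compared. Arrays 2 and 3 of a group lay close together (SD of their log2 differences 0.14 in siPCARNEQ and 0.13 in siEGFP). The correlations therefore cannot tell whether array 2 of one group pairs with array 2 or array 3 of the other. The replicate block took the numbers of the labels as pairs, an assumption that was not tested.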

Additional observations from a re-analysis of the deposited data

How the results depend on the processing

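The directions of the 6 called member probe sets and of the 22 list genes named by rule were the same under each alternative that kept the probe set. These were a replicate block, a filter on dim probe sets, repeated quantile normalization and an offset of 50. Leaving out each array, averaging arrays 2 and 3, and eBayes with trend and robust variance were the others. A further alternative read list genes by a probe set without _s_ or _x_ in its name, where a gene had one. It called 2 Sprouty partners in place of 3. DYRK1A was then read by 239308_at, which differed by -0.07 and was not called, so its direction was not kept. Arrays 2 and 3 alone were added after seeing the data. Both SPRED1 probe sets and PAQR3 213372_at stayed called wherever they were tested, the dim SPRED1 235074_at being removed by the filter. Over all probe sets, 5420 were called higher and 4702 lower, against 1087 and 1177 with arrays 2 and 3 averaged, which leaves 2 values a group, and 9078 and 8026 with arrays 2 and 3 alone. Leaving out 1 array gave 3048 to 7130 higher and 2775 to 6102 lower, with siEGFP arrays 2 and 3 at the low end. Of the member probe sets, 5 to 6 were lower and 0 to 2 higher without 1 array, 3 were lower with arrays 2 and 3 averaged, and 2 were higher with arrays 2 and 3 alone and 1 with the replicate block. Without 1 array, the calls were 2 to 3 for other MAP kinase phosphatases, 2 to 4 for other RAS-ERK brakes, 0 to 5 for Sprouty partners, 2 to 7 for the RAS-ERK cascade, 3 to 6 for ERK-responsive transcripts and 2 to 4 for other PAQR genes. With arrays 2 and 3 averaged they were 1, 1, 0, 2, 1 and 2 in that order. With arrays 2 and 3 alone, 5 other MAP kinase phosphatases, 5 Sprouty partners, 8 cascade genes and 8 ERK-responsive transcripts were called. The replicate block called 5 other MAP kinase phosphatases, and the offset of 50 called 2 other RAS-ERK brakes. GRB2, PAQR6, ETV1, IL17RD and RASAL2 lost their calls without several single arrays. Apart from those counts and the calls named with each gene, the block changed MAP2K1 and NEDD4, which passed with it. The cause of these shifts was not tested. The number of arrays and the low level of DUSP6, SPRY2 and the dim probe sets limit what can be read.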
